A study of Mus musculus with 18 samples.

Results

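The Rab GTPases measured here were the 58 genes whose symbol in the array's probe-to-gene table is Rab followed by digits and optional letters or digits, out of 65956 transcript clusters that were tested. Binding partners such as Rab11fip1 and Rab3gap1, antisense RNAs and pseudogenes were left out. Each of the 58 had a single probe set of its own. Rab4b was listed only on a probe set shared with Mir3101 and has no value here. The liver RNA came from 18 male C57BL/6J mice, obtained at 4 weeks of age. There was 1 mouse on each Clariom D array and 3 mice in each of 6 groups. CD mice ate chow with 18% of its energy from fat, and HF and HFN mice a diet with 53%, for 8 weeks before a further 3 weeks on the same food. In those 3 weeks HFN mice had an intraperitoneal injection of 50 mg/kg NAD+ each day at ZT11, shortly before lights off, and HF and CD mice had saline as vehicle. Livers were taken at ZT6, in the light phase, or at ZT18, in the dark phase when mice feed. HF and HFN mice therefore shared the diet and differed in NAD+, HF and CD mice differed in diet, and HFN and CD mice differed in both.

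Rab proteins are membrane-anchored switches. An exchange factor loads a Rab with GTP on the membrane of 1 compartment, the loaded Rab recruits effectors such as tethers, motors and coat adaptors, and a GTPase-activating protein ends the signal before GDI extracts the Rab into the cytosol. Different Rabs mark different compartments, from the endoplasmic reticulum and Golgi to endosomes, lysosomes, autophagosomes and the plasma membrane. In the liver this traffic carries plasma proteins and lipoproteins out of hepatocytes, takes up ligands from blood, and delivers transporters to the bile canaliculus.

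By known role, 12 of the 58 genes act between the endoplasmic reticulum and Golgi, 8 on early endosomes, 10 on late endosomes, lysosomes or autophagosomes and 11 in recycling or transport to the plasma membrane. A further 8 act in regulated secretion, 3 on lysosome-related organelles, and 6 in cilia or ubiquitin ligases or are little known. On 37 genes the log2 signal exceeded the array's negative-control median on all 18 arrays, on 7 it did so on some arrays, and on 14 on none. Over all transcript clusters, 30.8% exceeded it on all 18 arrays. Genes of regulated secretion such as Rab3b and Rab3c, known from neurons and gland cells, were among the 14. None of the 58 reached the ceiling of the scale, a log2 value of 19.93.

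Some arrays stood apart. The negative-control median lay between 4.58 and 5.01, and was above 4.9 on 5 arrays. At ZT18 these were the CD replicates 2 and 3, and at ZT6 the HF replicates 2 and 3 with CD replicate 3. HFN ZT18 replicate 1 had 440 transcript clusters more than 1 log2 unit above every other array, against 0 to 36 on the others, and its 5 lymphocyte markers averaged 6.10 against 3.99 to 4.15. The B cell gene Ms4a1 was at 8.67 there and at 3.88 to 4.22 elsewhere, and the T cell gene Cd3e at 6.39 against 3.88 to 4.35. Among the Rab genes, Rab8b and Rab6b also stood out on that array. Of the defining markers of liver cells, Alb, Adgre1, Clec4f, Stab2 and Lrat were above the negative-control median on all 18 arrays, and the cholangiocyte marker Krt19 on none. In whole liver, fewer cells of a type and less RNA per cell cannot be told apart.

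In the limma model of all 6 groups, a gene passed the test when its p, adjusted by Benjamini-Hochberg across the whole array, was below 0.05 and 1 group mean was more than 25% above the other. Of the 58 Rab genes, 3 were higher in HFN than in CD livers at ZT18, Rab1b, Rab6a and Rab10, against 0.835% of all transcript clusters in that direction and 1.06% in both. In CD livers Rab5b had a lower signal at ZT18 than at ZT6, where 0.214% of all clusters were lower and 0.376% changed. No Rab gene passed in the other comparisons. The background was 0.606% for HF against CD at ZT18, 0.044% for HF against CD at ZT6, 0.0318% for HFN against CD at ZT6, 0.866% for ZT18 against ZT6 in HF livers and 0.246% in HFN livers. For HFN against HF no cluster of the array passed at ZT6 or at ZT18, a background of 0% each. The same 0% held for the 2 differences between day-to-night changes. The study itself named Rab1b, Rab6a, Rab10, Rab8a and Rab7 (Rab7a) from these arrays, so their direction here is not independent evidence.

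Rab1b, Rab6a and Rab10 were higher in the same comparison, and their promoters are printed with that of Rab5b so that the sequence can be read beside the values of the 4 genes that passed. Each window holds 300 bases around the RefSeq transcript start in GRCm38.p6, most of them upstream, 5′ to 3′ on the gene's strand. Capitals mark CCAAT, or ATTGG where it lies on the other strand, the CCAAT box of many core promoters.
Rab1b (chr19:5106947-5107246, minus strand): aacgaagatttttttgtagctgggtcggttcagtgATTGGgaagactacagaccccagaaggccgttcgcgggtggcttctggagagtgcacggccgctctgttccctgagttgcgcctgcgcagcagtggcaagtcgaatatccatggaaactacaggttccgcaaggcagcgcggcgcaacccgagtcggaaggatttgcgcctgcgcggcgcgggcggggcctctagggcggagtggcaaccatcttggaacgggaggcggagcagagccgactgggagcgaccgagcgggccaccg
Rab6a (chr7:100607336-100607635, plus strand): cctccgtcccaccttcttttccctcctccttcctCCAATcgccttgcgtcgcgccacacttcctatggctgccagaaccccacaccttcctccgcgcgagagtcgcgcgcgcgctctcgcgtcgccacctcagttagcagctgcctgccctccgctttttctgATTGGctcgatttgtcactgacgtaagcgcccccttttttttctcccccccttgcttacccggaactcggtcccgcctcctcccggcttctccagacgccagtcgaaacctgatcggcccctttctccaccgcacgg
Rab10 (chr12:3309920-3310219, minus strand): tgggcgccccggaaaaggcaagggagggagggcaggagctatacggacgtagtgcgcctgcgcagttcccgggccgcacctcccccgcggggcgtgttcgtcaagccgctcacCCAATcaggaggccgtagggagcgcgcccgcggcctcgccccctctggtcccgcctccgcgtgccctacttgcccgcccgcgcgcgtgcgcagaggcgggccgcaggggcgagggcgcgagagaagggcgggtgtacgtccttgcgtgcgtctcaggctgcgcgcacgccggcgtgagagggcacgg
Rab5b (chr10:128696219-128696518, minus strand): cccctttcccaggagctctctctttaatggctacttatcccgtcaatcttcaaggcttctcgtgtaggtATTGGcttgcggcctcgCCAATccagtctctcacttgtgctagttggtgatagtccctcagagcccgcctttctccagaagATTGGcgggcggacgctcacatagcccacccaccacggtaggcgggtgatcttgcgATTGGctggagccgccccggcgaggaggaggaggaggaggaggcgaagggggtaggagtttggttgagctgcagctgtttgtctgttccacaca
The windows of Rab1b and Rab10 hold 1 CCAAT box each, that of Rab6a 2 and that of Rab5b 4. Of the 58 Rab genes 47 matched the table, with 59 windows. A CCAAT box stood in 42.4% of these windows and in 37.4% of all 32851 windows of the table. The GC box GGGCGG, searched on both strands, stood in 67.8% of the 59 Rab windows and in 35.7% of all windows; Rab1b, Rab10 and Rab5b have it and Rab6a does not. Among motifs tied to the clock or to cyclic AMP, the E-box CACGTG stood in 10.2% of Rab windows and 7.15% of all, the D-box TTATGTAA in 1.69% and 0.938%, and the CRE TGACGTCA in 3.39% and 1.79%. None of these 3 was in the 4 printed windows. CCAAT was chosen for the capitals after the sequences had been seen, and none of the 5 motifs contains another. A match is a description of the sequence and shows no binding.

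Among the Rabs of the endoplasmic reticulum and Golgi, Rab1b showed the largest log2 difference of the 58 genes for HFN against CD at ZT18. Rab1b tethers vesicles that leave the endoplasmic reticulum for the Golgi and takes part in forming autophagosomes. Its log2 signal at ZT18 was 11.66, 12.35 and 12.06 in CD livers, 12.17, 12.27 and 12.71 in HF livers and 12.83, 13.22 and 12.88 in HFN livers. Every HFN liver was above every HF and CD liver, while HF and CD livers overlapped. HFN exceeded CD by 0.95 on the log2 scale (SE 0.21), or 1.93-fold, with an adjusted p of 0.0435. At ZT6 the CD livers were at 12.30, 12.95 and 12.50, the HF livers at 12.75, 12.67 and 12.67 and the HFN livers at 12.70, 13.25 and 12.86, with overlap among the groups. Rab1b has a near copy in Rab1a, and how far probes cross between such copies, Rab5a, Rab5b and Rab5c or Rab8a and Rab8b included, was not tested.

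Rab6a, which moves vesicles within the Golgi and back to the endoplasmic reticulum, had the lowest adjusted p of the 58 genes in that comparison. At ZT18 the CD livers gave 10.59, 10.61 and 10.33, the HF livers 10.78, 10.86 and 10.87 and the HFN livers 11.18, 11.15 and 11.10. The 3 groups stood in that order with no overlap between any 2 of them. HFN exceeded CD by 0.63 (SE 0.115), or 1.55-fold, with an adjusted p of 0.0175. HF exceeded CD by 0.33 (SE 0.115) with an adjusted p of 0.237, which did not pass. At ZT6 the HF livers, at 11.15, 11.05 and 10.78, overlapped the others. The CD livers were then at 10.62, 10.95 and 10.50 and the HFN livers at 11.01, 11.10 and 10.96, a difference of 0.33 (SE 0.115) whose adjusted p was 0.907. Those CD and HFN livers did not overlap, but only just, at 10.95 in the highest CD liver and 10.96 in the lowest HFN liver.

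Rab2a, Rab43 and Rab1a, also of the early secretory pathway, had higher means in HF and HFN than in CD livers at ZT18 without passing. Rab2a acts between the Golgi and endoplasmic reticulum, and gave 13.39, 12.68 and 12.70 in CD, 13.48, 13.66 and 13.63 in HF and 13.48, 13.66 and 13.47 in HFN livers. CD replicate 1 lay close to the HF and HFN livers and the other CD livers lay far below. The difference was 0.66 (SE 0.16) for HF less CD, with an adjusted p of 0.0812, and 0.61 (SE 0.16) for HFN less CD, with an adjusted p of 0.0843. Those 2 low CD values came from the arrays of high negative-control median. Leaving out the 5 such arrays leaves CD replicate 1 as the only CD liver at ZT18, so the HF less CD difference of 0.19 then only restates how close that liver lay. Without CD ZT18 replicate 1 instead, HF less CD was 0.90 with an adjusted p of 0.00237, within a range of 0.00237 to 0.847 over its 16 alternatives.

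Rab43, a Golgi Rab, gave 10.12, 10.35 and 10.49 in CD, 10.55, 10.66 and 10.82 in HF and 10.65, 10.79 and 11.15 in HFN livers at ZT18. CD livers lay below the rest, and HFN exceeded CD by 0.54 (SE 0.14) with an adjusted p of 0.0852. At ZT6 the HF livers, at 11.03, 11.19 and 11.27, stood above the CD livers at 10.40, 10.61 and 10.82 and the HFN livers at 10.68, 10.89 and 10.85. HF exceeded CD there by 0.55 (SE 0.14, adjusted p 0.371) and HFN was below HF by a log2 change of -0.36 (SE 0.14, adjusted p 0.683), which was -0.13 with the negative-control median as a covariate. The 8 Kupffer cell and macrophage markers moved the same way at ZT6, averaging 7.99 to 8.69 in CD, 8.69 to 9.28 in HF and 8.05 to 8.58 in HFN livers. Of these 8, all had a higher mean in HF than in CD livers (median log2 difference 0.70) and all a lower mean in HFN than in HF livers (median -0.70), with none past the adjusted test. Their part in the Rab43 differences was not tested. The negative-control median did not overlap between HF and HFN livers at ZT6, so that covariate cannot separate array background from treatment.

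Rab1a gave 13.28, 12.88 and 12.55 in CD, 13.54, 13.66 and 13.30 in HF and 13.14, 13.45 and 13.28 in HFN livers at ZT18. HF livers stood just above the highest CD liver, and HFN livers overlapped both. HF exceeded CD by 0.60 (SE 0.16) with an adjusted p of 0.135. The difference was 0.39 with the negative-control median as a covariate and 0.22 without the 5 arrays, which leaves CD replicate 1 alone in its group. Unlike Rab1b, Rab1a had a lower mean in HFN than in HF livers at ZT18. Of the 12 genes of this role, 11 had a higher mean in HFN than in CD livers at ZT18. The median log2 difference was 0.34, against 0.09 for the 58 Rab genes and 0.02 for all clusters. The median over the brighter clusters was not computed. The 11 include Rab19, below the negative-control median on every array, and Rab6b and Rab2b, both highest on HFN ZT18 replicate 1. Without that array Rab6b was at 0.10. Against HF the median for the 12 genes was 0.08.

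**Figure D1:**
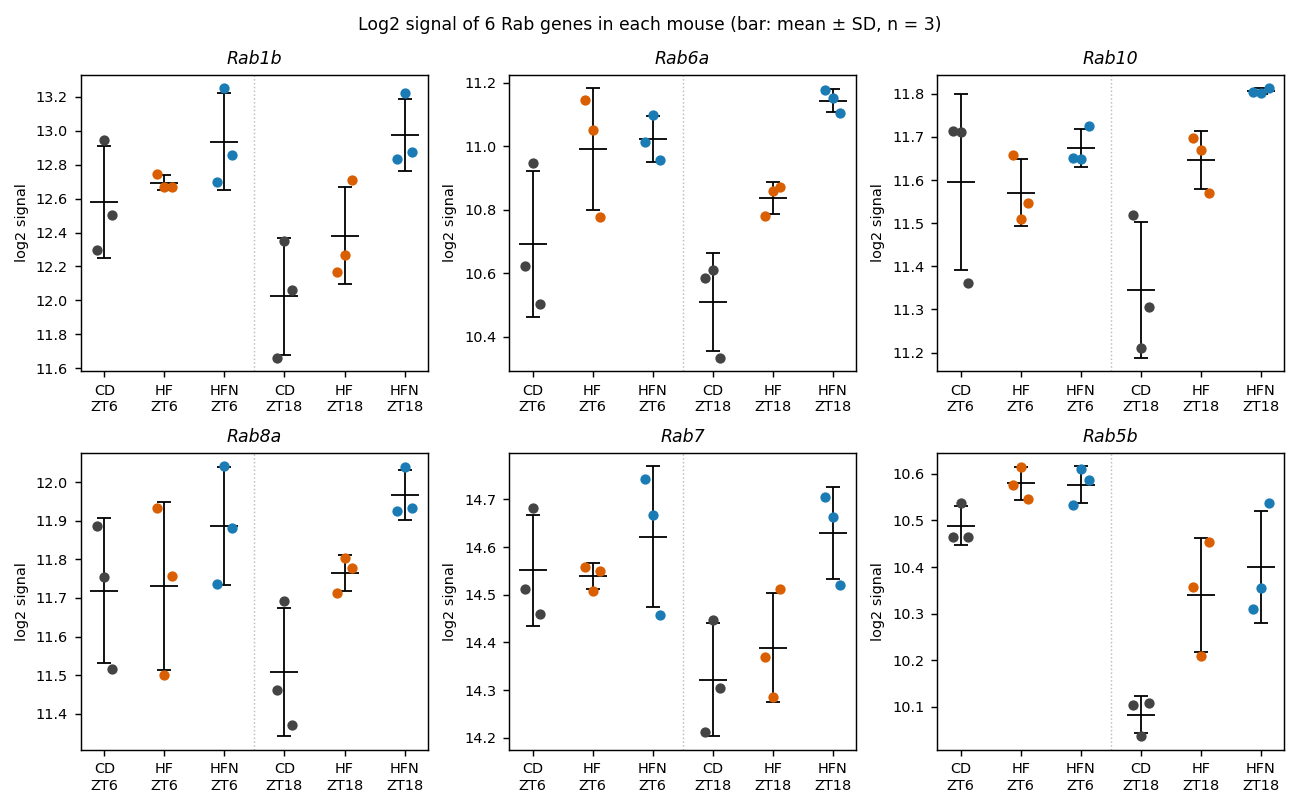
Log2 signal of Rab1b, Rab6a, Rab10, Rab8a, Rab7 and Rab5b (vertical axis) in each mouse of the 6 groups (horizontal axis), with the bar at the mean and whiskers of 1 SD, n = 3. At ZT18 the HFN livers lie above the CD livers in all 6 panels, and Rab5b in CD livers falls from 10.46 to 10.54 at ZT6 to 10.04 to 10.11 at ZT18.

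On early endosomes, Rab5b was the gene that changed with time of day in CD livers. Rab5b is 1 of 3 Rab5 copies that drive fusion of early endosomes. In CD livers it gave 10.46, 10.54 and 10.46 at ZT6 and 10.10, 10.04 and 10.11 at ZT18. The 2 times were far apart, and Rab5b fell by 0.41 (SE 0.07) on the log2 scale, or 1.33-fold, with an adjusted p of 0.0231. In HF livers it gave 10.58, 10.62 and 10.55 at ZT6 and 10.36, 10.21 and 10.45 at ZT18, a change of -0.24 (SE 0.07) with an adjusted p of 0.153, which was -0.13 after quantile normalization. HFN livers gave 10.53, 10.61 and 10.59 at ZT6 and 10.31, 10.35 and 10.54 at ZT18, and those overlapped. The interaction of diet and time for HF against CD livers was 0.17 (SE 0.10), with an adjusted p of 0.626. At ZT18 the HF and HFN livers all lay above the CD livers, by 0.26 and 0.32 (SE 0.07 each), with adjusted p of 0.139 and 0.0511. Rab5a and Rab5c had log2 changes of -0.36 and -0.13 in CD livers, with adjusted p of 0.654 and 0.885. The call on Rab5b held without CD ZT18 replicate 1 but not without any 1 of the other 5 CD arrays, where the log2 change was -0.42 to -0.38 and the adjusted p 0.06 to 0.118.

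Rab21, which acts in the uptake of integrins, gave 11.48, 11.69 and 11.85 in CD and 12.10, 11.99 and 12.29 in HFN livers at ZT18, with HF livers between 11.76 and 11.89. HFN livers were all above CD livers, by 0.45 (SE 0.11) with an adjusted p of 0.0770. In HFN livers Rab21 was at 12.00, 11.81 and 11.73 at ZT6, which overlapped ZT18, and the change of 0.28 (SE 0.11), or 0.16 after quantile normalization, had an adjusted p of 0.575 without it. Rab4a, of the fast recycling route, gave 9.62, 9.63 and 9.36 in HF and 8.997, 8.67 and 9.03 in HFN livers at ZT6. These did not overlap, and the log2 change was -0.64 (SE 0.26) with an adjusted p of 0.696. HF replicates 2 and 3 at ZT6 had a high negative-control median, and with that median as a covariate the change was -0.15. At ZT6 the median was 4.76 to 5.01 in HF and 4.60 to 4.75 in HFN livers. The covariate therefore cannot separate array background from treatment. Without the 5 arrays of high median the change was -0.72, with HF replicate 1 as the only HF liver at ZT6. Rab4a ran from 8.72 to 10.14 among the 3 CD livers at ZT6, a wider spread than this difference, and its highest CD values were on arrays of high negative-control median.

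Among the Rabs of recycling and transport to the plasma membrane, Rab10 was the third gene higher in HFN than in CD livers at ZT18. Rab10 and Rab8a carry exocytic vesicles, among them those of the insulin-responsive glucose transporter in fat and muscle cells. Rab10 gave 11.52, 11.21 and 11.31 in CD, 11.70, 11.67 and 11.57 in HF and 11.81, 11.80 and 11.81 in HFN livers. The HFN values were nearly equal and above all others, and HF livers were above CD livers. HFN exceeded CD by 0.46 (SE 0.10), or 1.38-fold, with an adjusted p of 0.0345. Rab10 also moved with the negative-control median of the arrays, at a Pearson r of -0.79 over the 18 arrays, as a description. On the 5 arrays of high median it was at 11.21 to 11.55 and on the other 13 at 11.52 to 11.81. With the median as a covariate the difference was 0.26, which did not pass. Without those 5 arrays it was 0.29, set against CD replicate 1 alone, which is assumed to vary like the other groups. At ZT18 the median was 4.58 to 4.65 in HFN and 4.67 to 4.91 in CD livers, with no overlap. The covariate therefore cannot separate array background from diet and NAD+, and the r over all groups includes that group difference. At ZT6 Rab10 lay between 11.36 and 11.73 over the 3 groups.

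**Figure D2:**
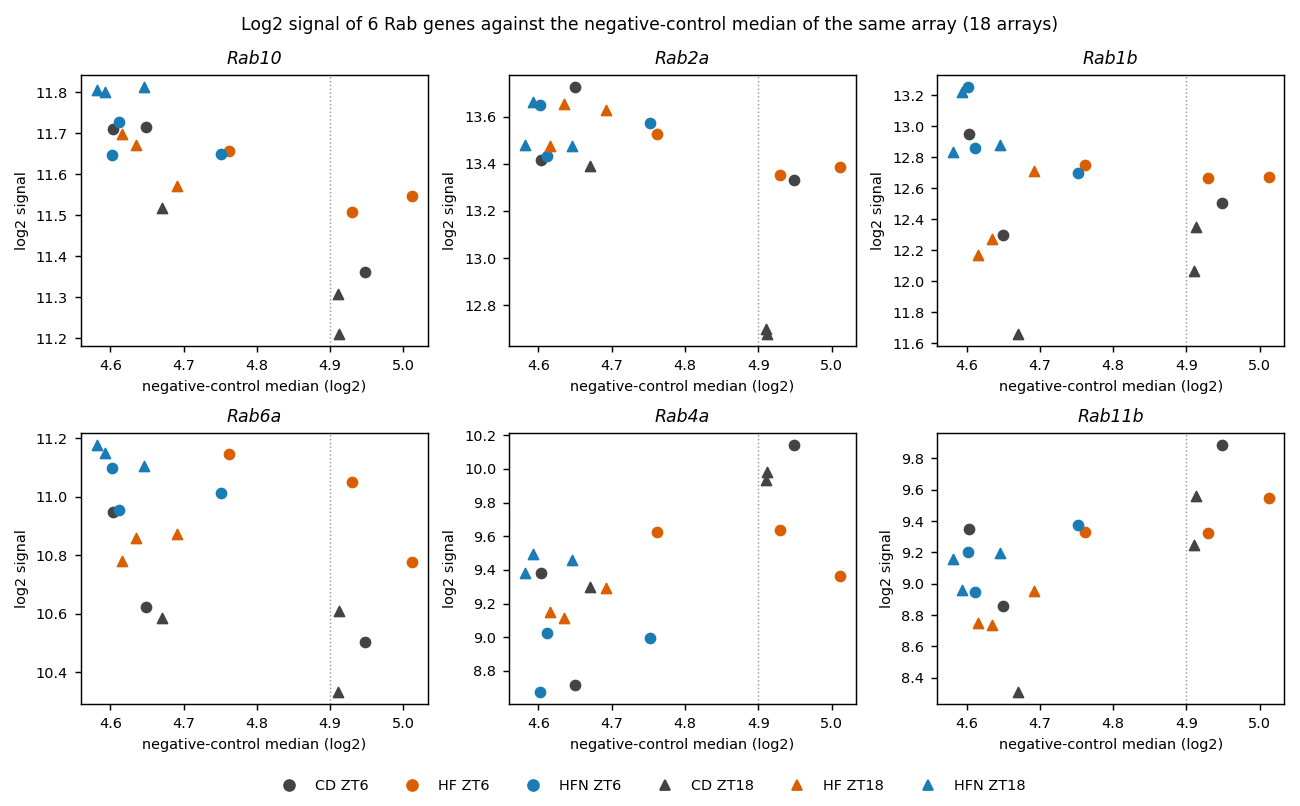
Log2 signal of Rab10, Rab2a, Rab1b, Rab6a, Rab4a and Rab11b (vertical axis) against the negative-control median of the same array in log2 units (horizontal axis) for the 18 arrays, with the dotted line at 4.9. Rab10 spans 11.21 to 11.55 on the 5 arrays to the right of the line and 11.52 to 11.81 on the rest, and the 2 CD ZT18 arrays there hold the lowest Rab2a values.

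Rab8a gave 11.46, 11.69 and 11.37 in CD, 11.71, 11.80 and 11.78 in HF and 11.92, 12.04 and 11.93 in HFN livers at ZT18. HFN livers were above HF livers, which were above CD livers. HFN exceeded CD by 0.46 (SE 0.12) with an adjusted p of 0.0943, so that Rab8a did not pass. Rab8b, its close copy, was at 7.82 in HFN ZT18 replicate 1 and between 6.14 and 6.52 on the other 17 arrays. Its log2 difference of 0.61 (SE 0.28) for HFN less CD was 0.11 without that array, and the part of lymphocyte RNA in it was not tested. Rab13, which acts at tight junctions, gave 4.97, 5.08 and 5.27 in HFN, 5.44, 5.41 and 5.35 in HF and 5.44, 5.33 and 5.24 in CD livers at ZT18. HFN livers were below HF livers by a log2 change of -0.29 (SE 0.08), with an adjusted p of 0.824. HFN livers had been at 5.25, 5.40 and 5.36 at ZT6, and the log2 change to ZT18 was -0.23 (SE 0.08) with an adjusted p of 0.455.

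Among the Rabs of late endosomes, lysosomes and autophagy none passed. Rab7, which drives fusion of late endosomes and autophagosomes with lysosomes, gave 14.21, 14.45 and 14.31 in CD, 14.37, 14.28 and 14.51 in HF and 14.70, 14.66 and 14.52 in HFN livers at ZT18. HFN livers lay above all CD and HF livers, the closest pair being 14.52 against 14.51. HFN exceeded CD by 0.31 (SE 0.09) with an adjusted p of 0.137, and by 0.13 after quantile normalization. With the negative-control median as a covariate the difference was 0.32. Without the 5 arrays of high median it was 0.42, set against CD replicate 1 alone. In HF livers at ZT6 Rab34 and Rab39, which act in the positioning and acidification of lysosomes and phagosomes, lay above the CD livers. Rab34 gave 5.22, 5.18 and 4.99 in CD and 5.48, 5.36 and 5.33 in HF livers, and HFN livers, at 5.20, 5.38 and 5.33, overlapped both. HF exceeded CD by 0.26 (SE 0.08) with an adjusted p of 0.540. Rab39, a dim gene, gave 4.09, 4.18 and 4.25 in CD, 4.44, 4.37 and 4.57 in HF and 4.35, 4.59 and 4.79 in HFN livers at ZT6. HFN exceeded CD by 0.40 (SE 0.10) with an adjusted p of 0.385, and HF exceeded CD by 0.29 (SE 0.10) with an adjusted p of 0.608. Rab39 was above the negative-control median on 1 of the 18 arrays.

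The remaining roles held no gene that passed. Rab32, of lysosome-related organelles and mitochondria, gave 7.22, 7.36 and 7.22 in CD and 7.77, 7.51 and 7.67 in HF livers at ZT18, with HFN livers at 7.39, 7.56 and 7.57. HF livers were above CD livers, by 0.38 (SE 0.10) with an adjusted p of 0.106. Rab26, of regulated secretion, gave 4.37, 4.44 and 4.33 in HF and 4.61, 4.42 and 4.64 in HFN livers at ZT6, with some overlap. The difference of 0.18 (SE 0.07) had an adjusted p of 0.701. Rab26 was above the negative-control median on 1 of the 18 arrays. Rab19, a Golgi Rab, gave 4.03, 3.97 and 4.01 at ZT6 and 4.26, 4.14 and 4.19 at ZT18 in HFN livers. It lay below the negative-control median there, and the change of 0.19 (SE 0.07) had an adjusted p of 0.507. Rab28, a Rab of cilia, was low in CD ZT18 replicates 2 and 3 at 6.64 and 6.54, against 7.36 in replicate 1.

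The 3 called genes stood among a wider set of Rab genes that were higher at ZT18 by a looser rule. For HFN against CD, 12 of the 58 Rab genes were higher when the adjustment was dropped from the rule, leaving a raw p below 0.05 and the same minimum change, and none was lower, against 5.38% higher over all clusters. Since many clusters of this array are dim, the share among the 32978 brighter clusters, where 48 of the Rab genes lie, is the nearer background, and 9.51% of these were higher by that rule and 1.63% by the adjusted one. The 12 were Rab1a, Rab1b, Rab2a, Rab6a, Rab30 and Rab43 of the endoplasmic reticulum and Golgi, Rab21, Rab12, Rab8a, Rab8b, Rab10 and Rab28. Rab8b was among them through HFN ZT18 replicate 1, the array with lymphocyte markers, and its difference was 0.11 without it. Of those not yet described, Rab12, which acts in autophagy, stood at 0.33 (SE 0.09, adjusted p 0.105), Rab30, a Golgi Rab, at 0.38 (SE 0.13, adjusted p 0.207) and Rab28 at 0.44 (SE 0.18, adjusted p 0.259). The groups did not overlap for 21 of the 58 genes, against 15.2% of all clusters. For non-overlap the share among the brighter clusters was not computed in any comparison, so the nearer background is missing. By role, the mean was higher in HFN than in CD livers for 7 of 8 genes of early endosomes (median log2 difference 0.17), 7 of 10 of late endosomes (0.09), 6 of 11 of recycling (0.06), 5 of 8 of regulated secretion (0.07), 3 of 3 of lysosome-related organelles (0.24) and 5 of 6 of cilia, ubiquitin ligases or little known (0.05). Over all clusters 54.4% were above 0, and the share among the brighter clusters was not computed. For HF against CD at ZT18, 8 Rab genes were higher by the unadjusted rule and none lower, against 3.87% of all clusters and 7.34% of the brighter ones, and groups did not overlap for 21 genes, against 15.8% of all clusters. Without CD ZT18 replicate 1, Rab2a, Rab10, Rab11a, Rab1a and Rab28 passed the adjusted test for HF against CD, at 0.90, 0.39, 0.54, 0.78 and 0.84. The share of all clusters that passed in that fit was not computed. Both comparisons share the CD ZT18 arrays, on 2 of which the negative-control median was high. The sinusoidal endothelial markers, 6 genes, averaged 8.85 to 9.28 in HFN, 8.48 to 8.60 in HF and 8.29 to 8.67 in CD livers at ZT18. Of these, 4 had a higher mean in HFN than in CD livers, with a median log2 difference of 0.34 and a range of -0.25 to 2.25. The highest was Lyve1, the 1 marker of the 6 to pass, at 2.25 (SE 0.44, adjusted p 0.0252). Stellate cell markers averaged 7.63 to 7.82 in HFN, 7.50 to 7.52 in HF and 7.32 to 7.56 in CD livers. The 8 Kupffer cell and macrophage markers averaged 8.07 to 8.62 in HFN, 8.03 to 8.18 in HF and 7.47 to 8.55 in CD livers, and 7 of the 8 had a higher mean in HFN than in CD livers, with a median log2 difference of 0.42 and none past the adjusted test. The part of endothelial, stellate or macrophage RNA in the Rab differences was not tested.

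The 3 calls for HFN against CD rest on few mice. Without HFN ZT18 replicate 1, the array that stood apart, the log2 difference was 1.02 for Rab1b and 0.62 for Rab6a, with adjusted p of 0.0488 and 0.0357, while Rab10, at 0.46, no longer passed, with an adjusted p of 0.0568. Rab43, at 0.65, and Rab5b, at 0.36, then passed as well, with adjusted p of 0.048 and 0.0352. None of the 3 passed without CD ZT18 replicate 3, HFN ZT18 replicate 2 or HFN ZT18 replicate 3, where the log2 difference was 0.97, 0.83 and 1.00 for Rab1b, 0.55, 0.63 and 0.65 for Rab6a and 0.44, 0.46 and 0.46 for Rab10. Without CD ZT18 replicate 1, Rab1b, at 0.77, did not pass and Rab2a, Rab11a, Rab28 and Rab5b did. Without CD ZT18 replicate 2, Rab10, at 0.39, did not pass. The share of all clusters that passed was not computed in any of these fits. Over all 16 alternatives the log2 difference ran from 0.77 to 1.32 for Rab1b, 0.45 to 0.68 for Rab6a and 0.26 to 0.55 for Rab10, and the adjusted p from 0.0176 to 0.242, 0.00921 to 0.177 and 0.0118 to 0.254.

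HFN against HF sets NAD+ against saline under the same diet, and no Rab gene passed there in the limma fit. By the unadjusted rule 1 Rab gene was higher, Rab1b, and none lower, against 2.08% of all clusters higher. Of the 32978 brighter clusters 1064 were higher. The groups did not overlap for 16 of the 58, against 11% of all clusters, dim ones included. For the 5 genes the study named, the log2 difference and its 95% interval were 0.59 (0.15 to 1.04) for Rab1b, 0.31 (0.06 to 0.55) for Rab6a, 0.24 (0.04 to 0.44) for Rab7, 0.20 (-0.06 to 0.46) for Rab8a and 0.16 (-0.05 to 0.37) for Rab10. Their adjusted p ran from 0.854 to 0.929. All 5 had the HFN livers above every HF liver at ZT18. The study named them from these same arrays as overexpressed after NAD+ treatment, so this separation is not independent evidence. Intervals for Rab8a and Rab10 include 0 and also changes of up to 0.46 and 0.37. Quantile normalization brought the difference to 0.17 for Rab6a, 0.09 for Rab8a and 0.07 for Rab10, and to 0.47 for Rab1b and 0.17 for Rab7. Without HFN ZT18 replicate 1 that of Rab1b was 0.67 and that of Rab6a 0.29. Over the whole array, 1370 clusters were higher and 481 lower at ZT18 by the unadjusted rule, and the lowest adjusted p was 0.194. At ZT6, 2 Rab genes were lower by the unadjusted rule, Rab43 and Rab4a, and none higher, against 2.49% of all clusters lower. Of the 32978 brighter clusters 1428 were lower at ZT6. At that time the 5 genes the study named gave overlapping HF and HFN livers.

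**Figure D3:**
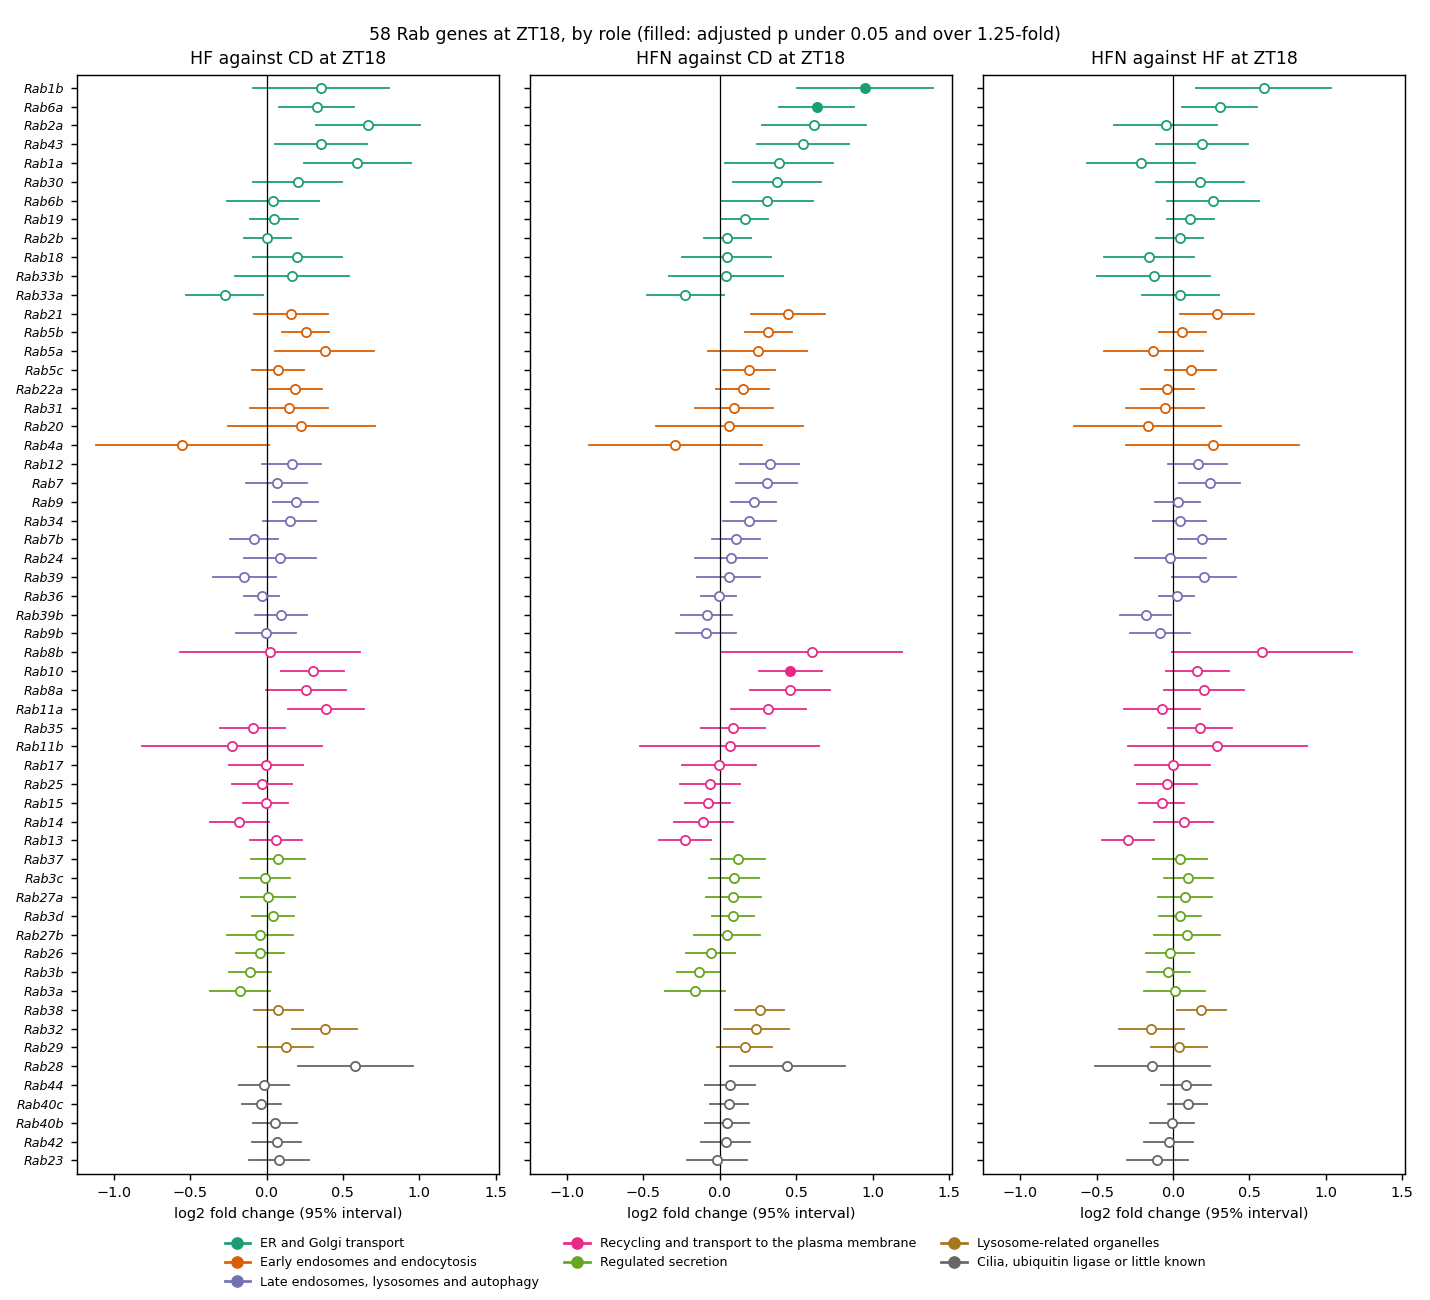
Log2 fold change (horizontal axis) of the 58 Rab genes, grouped and coloured by role (vertical axis), with the 95% interval of the limma model for HF against CD, HFN against CD and HFN against HF livers at ZT18. Only Rab1b, Rab6a and Rab10 for HFN against CD are filled, the 3 genes past the test, and 11 of the 12 genes of the endoplasmic reticulum and Golgi lie above 0 there.

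The other diet comparisons at ZT6 held few Rab differences. For HFN against CD, 2 Rab genes were higher by the unadjusted rule, Rab39 and Rab6a. The background was 1.22% of all clusters and 658 of the 32978 brighter ones. For HF against CD it was 1 gene, Rab43, against 1.85% of all clusters and 1010 of the brighter ones. None was lower in either.

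From ZT6 to ZT18 in CD livers, 5 Rab genes were lower by the unadjusted rule and none higher, against 2.17% of all clusters lower and 4.13% of the brighter ones. They were Rab5b, Rab2a, Rab1b, Rab5a and Rab28, and of these only Rab5b passed the adjusted test. Without CD ZT18 replicate 1, Rab2a at -0.80 and Rab28 at -0.64 passed with it, in a fit whose share over all clusters was not computed. Groups did not overlap for 10 of 58 genes, against 9.98% of all clusters, dim ones included. Rab2a in CD livers gave 13.73, 13.42 and 13.33 at ZT6, and its log2 change of -0.57 (SE 0.16) had an adjusted p of 0.223. That of Rab1b was -0.56 (SE 0.21) with an adjusted p of 0.515, and the 2 times overlapped. With CD replicate 1 as the only ZT18 liver, after the arrays of high negative-control median were left out, these were -0.18 and -0.96. In HF livers 3 Rab genes passed the unadjusted rule, Rab43, Rab11b and Rab1a, against 8.83% of all clusters in both directions. Of the 32978 brighter clusters 2146 were higher and 3134 lower, with 1 and 2 of the 48 Rab genes among them. The log2 change was -0.49 for Rab43 (SE 0.14, adjusted p 0.133) and 0.49 for Rab1a (SE 0.16, adjusted p 0.203), with no overlap between the times for either. With the negative-control median as a covariate these were -0.25 and 0.21. That median did not overlap between ZT6 and ZT18 in HF livers, at 4.76 to 5.01 and 4.62 to 4.69. The covariate therefore cannot separate array background from time. Without the 5 arrays of high median the changes were -0.36 and 0.52, with HF replicate 1 as the only HF liver at ZT6. Rab1a in HF livers at ZT6 gave 12.98, 13.17 and 12.88. In HFN livers no Rab gene passed the unadjusted rule, against 4.11% of all clusters. Of the 32978 brighter clusters 1593 were higher and 726 lower.

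**Figure D4:**
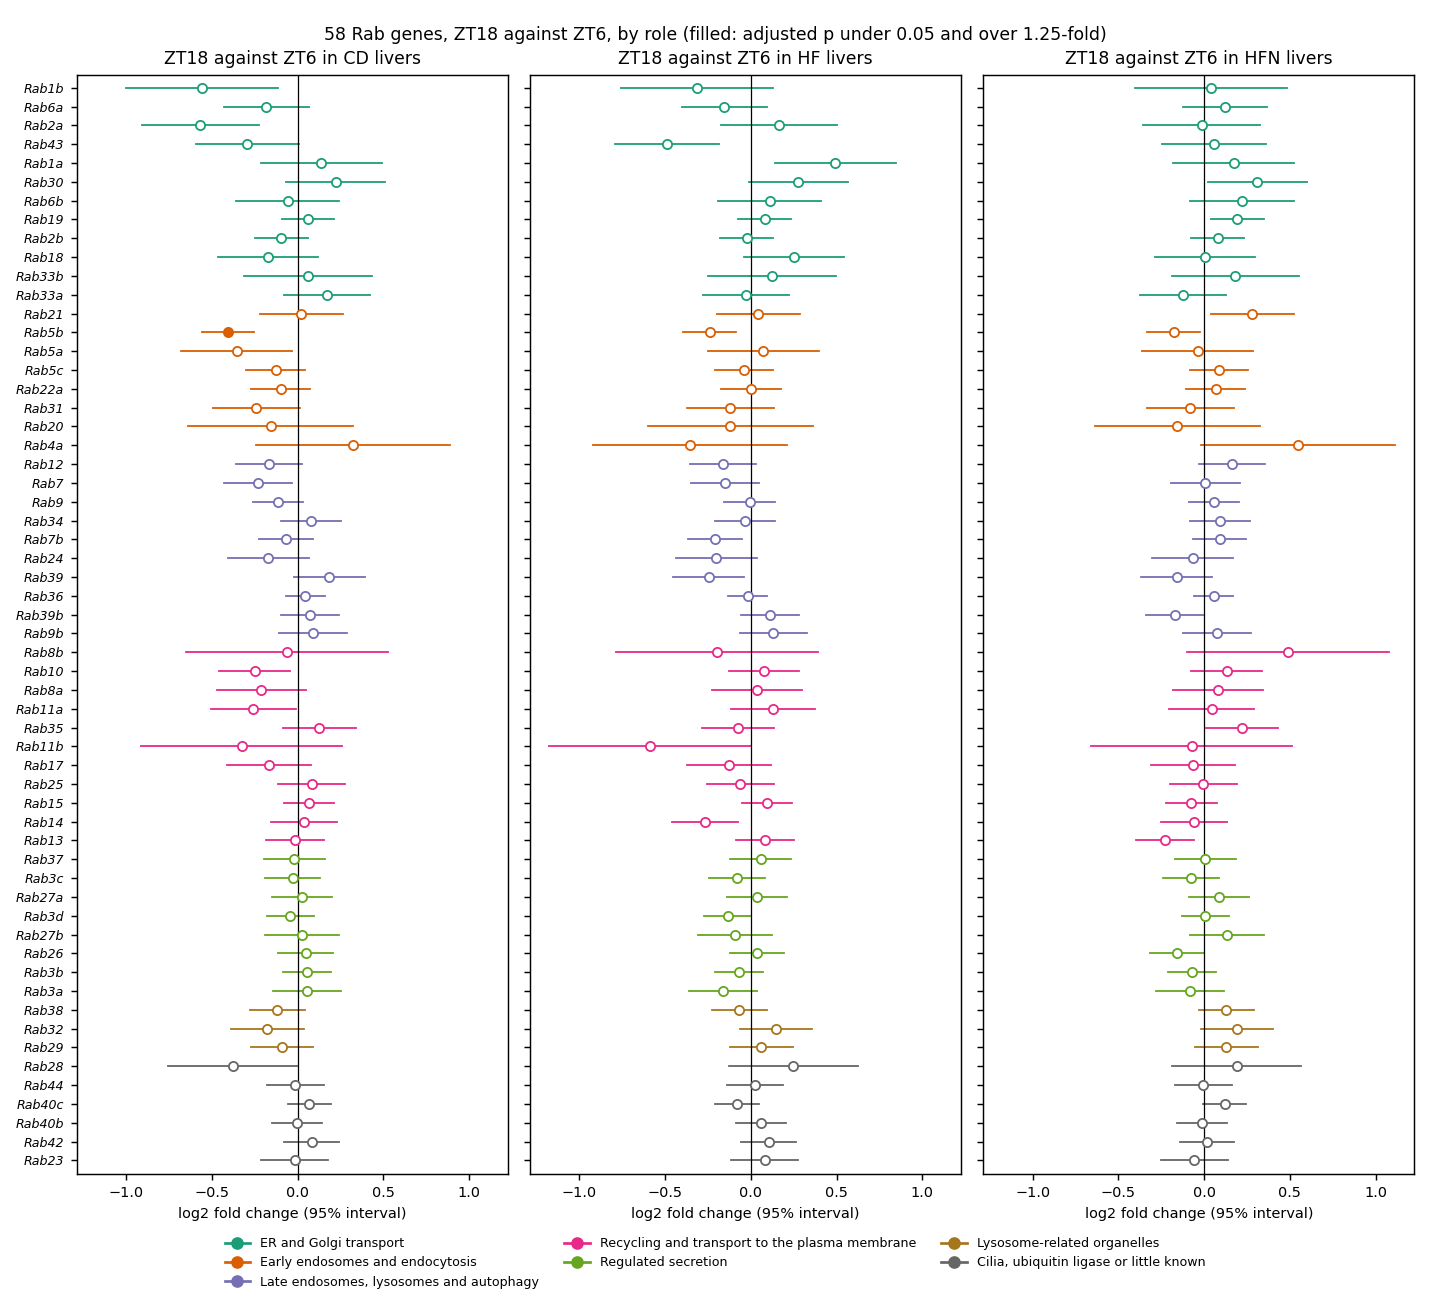
Log2 fold change from ZT6 to ZT18 (horizontal axis) of the 58 Rab genes by role (vertical axis) in CD, HF and HFN livers, with the 95% interval of the limma model. Rab5b in CD livers, at -0.41, is the 1 filled point, and Rab43 at -0.49 and Rab1a at 0.49 in HF livers are open.

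Differences between these day-to-night changes were also fitted. Subtracting the CD change from the HF change gave 7 Rab genes by the unadjusted rule against 8.08% of all clusters. Of the 32978 brighter clusters 1887 were higher and 2421 lower by that rule, with 6 and 1 of the 48 Rab genes among them. Rab2a led the Rab genes at 0.73 (SE 0.22, adjusted p 0.477). Without CD ZT18 replicate 1 the difference for Rab2a was 0.97 with an adjusted p of 0.0328, the 1 Rab gene to pass. The share of all clusters that passed in that fit was not computed. Subtracting the HF change from the HFN change gave 3 Rab genes against 5% of all clusters, among them Rab43 at 0.55 (SE 0.20, adjusted p 0.773). Of the brighter clusters 1664 were higher and 720 lower there, with 3 and 0 of the 48 Rab genes. Neither difference held a Rab gene past the adjusted test.

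Some genes listed for proteins that act on Rabs passed the test at ZT18. Among the 35 measured genes listed as GTPase-activating proteins, mostly TBC-domain proteins, 3 were higher in HFN than in CD livers and none lower. Of all clusters 0.835% were higher, and of the brighter ones 1.63%. Whether each listed protein has that activity was not checked. Tbc1d31 exceeded CD by 1.36 (SE 0.16, adjusted p 0.00126) in HFN and by 1.42 (SE 0.16, adjusted p 0.000834) in HF livers, and the CD, HF and HFN livers lay at 6.41 to 6.85, 7.91 to 8.16 and 7.94 to 8.04. HF and HFN livers overlapped, both far above CD livers. Tbc1d19 was higher in HFN by 0.78 (SE 0.08, adjusted p 0.00081) and Tbck by 0.81 (SE 0.12, adjusted p 0.00469). Tbc1d19 fell by 0.48 (SE 0.08, adjusted p 0.0205) from ZT6 to ZT18 in CD livers.

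Of the 49 measured exchange factors, 3 were higher in HFN than in CD livers at ZT18 and none lower, against the same background of 0.835%. They were Dennd2d, by 0.72 (SE 0.12, adjusted p 0.0108), and the TRAPP subunits Trappc2l, by 0.73 (SE 0.16, adjusted p 0.0435), and Trappc4, by 0.72 (SE 0.16, adjusted p 0.0474). TRAPP complexes load Rab1 at the Golgi. In HF livers Ccz1, part of the factor that loads Rab7, exceeded CD at ZT18 by 0.66 (SE 0.14, adjusted p 0.0461). Denn2b, a DENN-domain protein, was higher at ZT18 than at ZT6 in CD, HF and HFN livers, with an SE of 0.22 each. The rise in CD livers was 1.13 with an adjusted p of 0.0404. It was 1.54 in HF livers, where the adjusted p was 0.00405, and 1.41 in HFN livers, where it was 0.0125. In CD livers Sbf2, a DENN-domain exchange factor, fell by 0.52 (SE 0.09, adjusted p 0.015). In HF livers Rabgef1, which loads Rab5, rose by 0.54 (SE 0.10, adjusted p 0.0261) and Ankrd27, which loads Rab21, fell by 0.51 (SE 0.10, adjusted p 0.0327). Trappc10 rose in HFN livers by 0.38 (SE 0.07, adjusted p 0.033).

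Of the 47 measured genes listed as effectors none passed for HFN against CD at ZT18. The lowest p was that of Wdr41, at a log2 difference of 0.58 (SE 0.14, adjusted p 0.0704). Whether each listed protein binds a Rab itself was not checked. Mical2, an actin-oxidising enzyme of that list, rose from ZT6 to ZT18 in CD livers by 0.84 (SE 0.14, adjusted p 0.015). Ocrl, a lipid phosphatase that binds Rabs, fell in HF livers by 0.40 (SE 0.09, adjusted p 0.0481). Tbc1d16 and Tbc1d30 also fell in HF livers, by 0.53 (SE 0.08, adjusted p 0.00432) and 0.63 (SE 0.12, adjusted p 0.0265). None of the 8 measured genes of prenylation and extraction passed in any comparison, the lowest p being that of Gdi2, the GDI of most tissues, at 0.49 (SE 0.15, adjusted p 0.172) for HF less CD at ZT18. For HFN against HF at ZT18 none of these lists held a gene that passed, the lowest p being that of Tbc1d19, at 0.41 (SE 0.08, adjusted p 0.644).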

How the data were processed

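Total liver RNA was hybridised to Clariom D mouse arrays, 1 mouse per array. The authors made the deposited log2 signal values with the default settings of the Transcriptome Analysis Console. For the summarization and genome build, the sources used here give no statement. The table has 72688 entries, of which 6732 control probe sets were left out and 5222, the negative controls, gave each array's background. The number of arrays, 3 per group, limits the precision. An exact permutation test of 3 against 3 cannot go below 0.1, so p-values came from limma 3.58.1 (R 4.3.3) fitted to all 65956 transcript clusters, with 1 mean per group, 11 contrasts and 12 residual degrees of freedom. No 2 arrays held identical values, and replicates correlated at 0.981 to 0.996. The fit was tested on simulated data. Gene names came from the platform annotation and RefSeq. Genes named with each mouse's value were those that passed, the 5 named by the study and the 3 of lowest p in each of 9 direct comparisons. Genes that act on Rabs were named where they passed, at most 4 a list, or by lowest p. The Rab genes, lists and alternatives were chosen with earlier results of these data known. Labels call the replicates biological. Alternatives changed normalization, filter, prior, covariate, fold minimum, arrays and replicate block.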

Additional observations from a re-analysis of the deposited data

How the results depend on the processing

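No value reversed its direction in the 511 alternative values of the 32 named gene results. Of these, 457 kept their side of the threshold, 35 lost it and 19 gained it. A changed p or fold rule, filter, prior, replicate block or choice of groups left the log2 difference as it was, so it could not reverse there. Most of the 32 did not pass in the main fit, so for them keeping their side meant not passing. Of the called results, Rab1b and Rab5b kept their call in 7 of 16 alternatives each, Rab6a in 9 and Rab10 in 6. Of the called Rab genes, 3 for HFN against CD at ZT18 and 1 for ZT18 against ZT6 in CD livers, none passed after quantile normalization, without the 5 arrays of high negative-control median or with only the compared groups in the fit. An intensity trend with a robust prior left 1 (Rab6a) and 0, and the negative-control median as a covariate left 1 (Rab43, in place of the 3) for HFN against CD. In that comparison the median did not overlap between the groups, so the covariate cannot separate array background from group. Leaving out 1 array in turn gave 0 to 6 for HFN against CD, 0 to 3 for CD livers over time, 0 to 5 for HF against CD at ZT18 and 0 to 1 for the HF less CD change. The highest of each came without CD ZT18 replicate 1, the CD array at that time with a low negative-control median. The share of all clusters that passed was not computed for any alternative fit, so these counts have no background. An unadjusted p gave 12 for HFN against CD at ZT18, 8 for HF against CD at ZT18, 5 over time in CD and 3 in HF livers, 7 and 3 for the differences between changes, and 1 for HFN against HF at ZT18. At ZT6 it gave 1 for HF against CD, 2 for HFN against CD and 2 for HFN against HF. Same-numbered arrays correlated in their deviations at -0.376 to 0.645 over 27 pairs. For CD livers over time the r was 0.645, -0.211 and 0.586 for replicates 1, 2 and 3. The signs were mixed, so these values cannot decide whether the numbers carry a pairing or batch. With the replicate block, 4 Rab genes passed for HFN against CD at ZT18, and 1 each, Rab43, for HF against CD at ZT6 and over time in HF livers. Keeping only brighter clusters, or a minimum fold of 1.3 or none, left the counts within 1.5 times. Averaging several probe sets of a symbol was not run, since no Rab gene had more than 1. Without the 5 arrays CD ZT18 and HF ZT6 keep 1 array each, which is assumed to vary like the rest.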

Other observations

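On the HFN ZT18 replicate 1 array, which carried lymphocyte markers, Rab6b was at 5.29 against 4.33 to 4.75 on the other 17 arrays and Rab27a, of lytic granules in T cells, at 5.40 against 4.99 to 5.24. Rab11b, a recycling Rab, lay at 9.25 to 9.89 on the 5 arrays of high negative-control median and at 8.31 to 9.38 on the other 13.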
